A study of Homo sapiens with 26 samples.

Results

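ZFP36L1 was targeted by 10 guide RNAs in pool TF3, a library whose targets are mostly genes of transcription factors by their names. Of these guides, 9 were more abundant in MYH high than in MYH low RH4 cells. The members are the 10 guides assigned to ZFP36L1 in the counts of that pool, out of 1141 guides in TF3 and 12342 guide entries over the 12 libraries of the series. No sample of the other 11 libraries held a guide with this name (0 samples). RH4 is an established rhabdomyosarcoma cell line that carries the PAX3-FOXO1 fusion, and both groups used here carry it: TF3 MYH high and TF3 MYH low. RH4 cells were infected with the TF3 guide library, drug selected, fixed at day 7, stained with antibodies to MYH, the myosin heavy chain that marks differentiated muscle, and split by flow sorting into the 2 groups. Each group is 1 sample of pooled cells, so no difference between them has a replicate check, and the 10 guides share that single sort. The gene was chosen because of its ratio in this contrast. Its values are therefore a description without a test.

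ZFP36L1 belongs with ZFP36 (tristetraprolin) and ZFP36L2 to a small family of RNA-binding proteins with tandem CCCH zinc fingers. These proteins bind AU-rich elements in the untranslated ends of messenger RNAs and recruit the CCR4-NOT deadenylase, so that the bound message is shortened and degraded. Kinases of the p38 and MK2 route, and AKT, phosphorylate family members and dampen this activity, and the phosphatase PP2A acts in the other direction. In mouse muscle satellite cells, ZFP36 is known to act on the message of the muscle regulator MyoD. The sources used here give neither the guides' sequences nor the part of ZFP36L1 that they cut, so guides are named by their numbers only.

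The TF3 MYH high sample held 53541408 reads over guides and the MYH low sample 44101115, and no guide of the pool was at 0 in either sample. A guide's abundance is given as CPM, its reads over the total of its sample times 1000000. Its log2 ratio is that of MYH high over MYH low, shifted so that the median guide of the pool lies at 0. That shift added 0.08, because the median guide stood at -0.08 before it. The value of a gene is the median over its guides, with the SD over guides as its spread.

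All 10 ZFP36L1 guides had a log2 ratio above 0, with a median of 0.47 (SD over guides 0.25, 10 guides), which is 1.39-fold. In the other 107 library targets of TF3, 48.3% of 1064 single guides were above 0. A log2 ratio of at least 0.3, or 1.23-fold, was seen for 9 of the 10 ZFP36L1 guides and for 9.21% of the other targets' guides. The gene was chosen on this contrast, so nothing is read from these counts beyond the values themselves.

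The strongest guide was sgRNA2986, with 1711 CPM in MYH high and 892 CPM in MYH low cells. Its log2 ratio of 1.02 is 2.03-fold. Among the 1064 guides of the other library targets, 3 had a ratio as high or higher (0.282%). It was also the most abundant of the 10 guides in both samples.

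Next came sgRNA2984, with 714 CPM in MYH high and 472 CPM in MYH low cells and a log2 ratio of 0.68. For sgRNA2980 the levels were 1167 CPM in MYH high and 836 CPM in MYH low cells, with a ratio of 0.56. For sgRNA2981 they were 993 CPM in MYH high and 733 CPM in MYH low cells, with a ratio of 0.52. These 3 guides lie within 0.16 of each other on the log2 scale, and sgRNA2986 stands 0.34 above the highest of them.

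In the middle of the set, sgRNA2987 had 425 CPM in MYH high and 324 CPM in MYH low cells, and a log2 ratio of 0.47. The guide sgRNA2985 had 1087 CPM in MYH high and 829 CPM in MYH low cells, also with a ratio of 0.47. The first is the scarcest of the set in MYH low cells and the second among its more abundant guides, and their ratios are the same to 2 decimals. The guide sgRNA2982 had 598 CPM in MYH high and 470 CPM in MYH low cells, with a ratio of 0.43.

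At the lower end, sgRNA2988 had 622 CPM in MYH high and 519 CPM in MYH low cells, and sgRNA2979 had 505 CPM in MYH high and 422 CPM in MYH low cells. Both had a log2 ratio of 0.34. The weakest guide, sgRNA2983, had 413 CPM in MYH high and 427 CPM in MYH low cells. It was the only ZFP36L1 guide with fewer CPM in MYH high cells, and its ratio of 0.03 is above 0 because of the shift of 0.08. Of the other targets' guides, 41.8% had a ratio as high as that of sgRNA2983, so this guide does not stand out from the pool.

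Counting error was small beside the spread between guides. The exact binomial 95% confidence intervals of the guides' log2 ratios had half-widths of 0.017 to 0.03, against the SD of 0.25 over guides. For sgRNA2983, with 22097 reads in MYH high and 18811 in MYH low cells, the interval ran from 0.004 to 0.06. For sgRNA2986, with 91617 reads in MYH high and 39333 in MYH low cells, it ran from 1.003 to 1.037. These intervals cover the counting of reads only, and polymerase chain reaction copies are not independent molecules. Without the weakest and the strongest guide the SD over the other guides was 0.11. Leaving out both ends narrows a spread and keeps the median, here 0.47, by construction.

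Added together, the 10 guides held 440990 reads in MYH high and 261216 in MYH low cells, or 0.824% and 0.592% of the reads of those samples. The ratio of these sums was 0.56 on the log2 scale (exact binomial 95% confidence interval 0.55 to 0.56). In a sum the abundant guides count for more, and sgRNA2986 and sgRNA2980 were the most abundant ones in MYH high cells.

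ZFP36L1 guides were on the scarce side of the library. Their median abundance was 668 CPM in MYH high and 496 CPM in MYH low cells, against 753 CPM in MYH high and 802 CPM in MYH low cells for the guides of the other library targets. In MYH low cells, 7 of the 10 lay below the median of the other guides. Across the 10 guides, log2 ratio and CPM in MYH low cells had a Spearman correlation of 0.61. All 10 points share the same pair of libraries and the CPM in MYH low cells enters both measures, so this is a description only.

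Within TF3, ZFP36L1 had the second highest median of 108 library targets. With NFYA, a subunit of the CCAAT-binding factor NF-Y, it was 1 of 2 targets at or above a log2 ratio of 0.3, the size limit used here, which is 1.85% of the pool. By the mean over guides, and by summed CPM, 3 targets were, with ZNF217 added. NFYA and ZFP36L1 were also the only library targets of TF3 with every guide above 0, again 1.85%. For ZFP36L1 this rests on the shift of 0.08, because sgRNA2983 had fewer CPM in MYH high cells. Ranked by the mean of the guides, or by the lowest guide, ZFP36L1 was likewise second to NFYA.

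The median log2 ratio of NFYA was 0.56 (SD 0.28 over 10 guides), 0.09 above ZFP36L1, and the guides of the 2 genes overlapped widely. The NFYA guides ran from 0.11 to 0.97, and 8 of the 10 ZFP36L1 guides lay inside that range, with sgRNA2983 below it and sgRNA2986 above it. The order of the 2 genes therefore rests on a gap smaller than the spread of either.

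The next target below was CUX2, a homeobox factor, at 0.25 (SD over guides 0.22, 10 guides), which leaves a gap of 0.22 under ZFP36L1. Of the ZFP36L1 guides, 9 lay above the CUX2 median and 2 above the highest CUX2 guide, at 0.57. The guides of both genes thus overlap too. ZNF217, a zinc finger oncoprotein, had 0.24 (SD 0.42), and its spread is carried by a guide at 1.44. CDC5L, a splicing and cell cycle factor, had 0.21 (SD 0.12), with 9 of 10 guides above 0. JUN, a subunit of AP-1, had 0.18 (SD 0.20), also with 9 of 10. The bulk of the pool lay near 0, with 85 of 108 targets within 0.1 of it. In spread ZFP36L1 was ordinary: 32 other targets had a larger SD over guides, and the median SD was 0.21.

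The control guides of TF3 show the scale of the sort. The set PAX3_Fusion_DBD, aimed by its name at the PAX3 part of the fusion, had a median of 2.71 (SD 0.93 over 10 guides). This is 2.24 above ZFP36L1 on the log2 scale, and below the 2.80 to 4.53 of the same set in the other 9 pools. The set FOXO1_fusion had 2.25 (SD 0.79). Sets against the parts outside the fusion had medians below ZFP36L1, at 0.11 (SD 0.37) for PAX3_non-fusion and 0.04 (SD 0.81) for FOXO1_non-fusion. Their guides overlapped with those of ZFP36L1. The highest guides of these sets, at 1.07 and 2.48, lay above the strongest ZFP36L1 guide. The 2.48, of FOXO1_non-fusion, lies inside the range of the FOXO1_fusion guides, 0.91 to 3.25. For FOXO1_fusion the authors' deposited table of the TF3 sort lists 11 guides, against 10 in the counts. The FOXO1 set labels thus differ between these 2 sources. MYOD1, a master regulator of muscle, had 0.06 and PCNA, the sliding clamp of DNA replication, -0.11.

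The 10 negative-control guides had a median of -0.02 (SD 0.34) and overlapped with the ZFP36L1 guides at their upper end. Of these controls, 8 lay between -0.23 and 0.04, and 9 of the 10 ZFP36L1 guides were above that range. The other 2 controls were sgRNA3241 at 0.36 and sgRNA3239 at 0.94. Above sgRNA3241 lay 7 ZFP36L1 guides, and above sgRNA3239 only sgRNA2986.

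The negative-control, MYOD1 and PCNA guides of TF3 were carried by all 10 pools, and their values show how far a guide set moves from sort to sort. Outside pool CF3, the median of the negative controls ran from -0.11 to 0.07 (SD 0.07, n = 9 pools). Over the same pools that of the shared MYOD1 guides ran from -0.33 to 0.06 (SD 0.11, n = 9 pools) and that of the PCNA guides from -0.11 to 0.35 (SD 0.14, n = 9 pools). In CF3, whose controls stand apart, the same sets had 1.30, 0.52 and 1.34. ZFP36L1 was chosen for its ratio in TF3, so its 0.47 is not read against these ranges. In TF3 the negative controls stood at -0.02, while PCNA, at -0.11, was at the lowest of its values over pools. The shared MYOD1 guides, at 0.06 in TF3, were at the highest of theirs outside CF3. How far ZFP36L1 itself would move in a second sort was not measured.

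Over all 10 pools, 984 target measurements of 956 genes were made, each pool scaled and centred on its own guides. At or above 0.3 lay 15 of them (1.52%), and 8 lay at or below -0.3 (0.813%). Centred on the negative controls of each pool, which lowers every value of CF3 by 1.30, the counts were 23 and 112. Only 6 measurements, of 5 genes, had a median above that of ZFP36L1. They were NFYC at 1.63, AURKA at 0.71, CDK1 at 0.60 in CF2 and 0.54 in KP2, NFYA at 0.56 and NIPBL at 0.51. After the shift of each pool, every guide was above 0 for 27 measurements (2.74%), ZFP36L1 among them.

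The likeness of other targets was measured by setting their 10 sorted guide ratios against those of ZFP36L1, as the mean absolute difference over 932 candidates with 10 guides. The closest was NIPBL, the loader of cohesin, in CF2, with a mean difference of 0.08 and guides from 0.02 to 0.80. CDK1, which drives entry into mitosis, followed in KP2 with 0.09 and guides from -0.11 to 0.71. ARID1A, a subunit of the SWI/SNF remodelling complex, had 0.09 in CF1, with guides from 0.17 to 0.86. SMARCE1, another SWI/SNF subunit, had 0.12 in TF1, as did NFYA in TF3. ARID1A was also measured in TF3, the sort of ZFP36L1. There its median log2 ratio was -0.09 (SD 0.26), with 3 of 10 guides above 0. In the pools where they were picked, these targets had medians between 0.38 and 0.56 and at least 9 of 10 guides above 0. They were picked for their likeness to ZFP36L1, so these traits follow from the choice. Their highest guides, unlike sgRNA2986, stay below 1. Of these 5, 4 come from other pools, so their values rest on other sorts.

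Of the ZFP36 family, ZFP36 was targeted in pool TF1 and ZFP36L2 was not analysed here. ZFP36 had a median of -0.09 (SD 0.23 over 10 guides), with 3 guides above 0. Its guides ran from -0.34 to 0.33, so that 9 of the 10 ZFP36L1 guides lay above the highest ZFP36 guide. The lowest ZFP36 guide, sgRNA785, had 708 CPM in MYH high and 986 CPM in MYH low cells. The highest, sgRNA782, had 573 CPM in MYH high and 501 CPM in MYH low cells. The 2 genes were sorted in different pools, and the difference between them was not tested.

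Genes that act with ZFP36 proteins on messenger RNA were sparsely covered, and none of those measured passed the size limit. Of 52 genes on a list of mRNA decay and AU-rich element binding, 3 were measured, with 0 at or above 0.3 and 0 at or below -0.3. Of all 984 measurements, 1.52% and 0.813% were. YBX1, a cold shock RNA-binding protein, had 0.05 (SD over guides 0.08, 6 guides) in TF2, and XRN1, the exonuclease that degrades decapped messages, had 0.02 (SD 0.13) in DR2. The only other CCCH protein measured of 47 listed was MKRN1, a ubiquitin ligase, at 0.05 (SD 0.14) in CF2.

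Among 20 listed kinases and phosphatases that act on ZFP36 proteins, 6 were measured, of which 0 were at or above 0.3 and 1 at or below -0.3. Over all 984 measurements these shares were 1.52% and 0.813%. The median of the list was -0.05, against -0.009 over all 984 measurements. MAPK14, the p38 alpha kinase, had -0.31 (SD over guides 0.12) in KP2, with 0 of 10 guides above 0, the side opposite to ZFP36L1. By the mean over its guides it had -0.26 and by summed CPM -0.25, both within the size limit. MAP2K3, which activates p38, had -0.11 (SD 0.13) in KP1, with 2 of 10 guides above 0. MAPKAPK2 (MK2), the kinase downstream of p38 that phosphorylates ZFP36 proteins, had -0.06 (SD 0.08) in KP1, again with 2 of 10. MAP2K3 and MAPKAPK2 lay within the size limit, on the side of 0 where 53.7% of all 984 measurements lay. AKT2 had -0.03 (SD 0.14) and the S6 kinase RPS6KA1 -0.01 (SD 0.64). PPP2CA, the catalytic subunit of PP2A, had 0.10 (SD 0.11), with 8 of 10 guides above 0.

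Of 13 listed genes whose messages are reported to be bound by ZFP36 proteins, 4 were measured, in 6 measurements. The median was 0.03, with 1 measurement at or above 0.3 and 1 at or below -0.3. Of all 984 measurements, 1.52% and 0.813% were. CDK6, a G1 kinase, had 0.39 (SD over guides 0.14) in CF1 and 0.06 (SD 0.14) in KP2. MYC had -0.21 (SD 0.15) in TF1, with 1 of 10 guides above 0. E2F2, a cell cycle transcription factor, had 0.002 (SD 0.22) in TF2 and 0.14 (SD 0.15) in DR2. MYOD1 had -0.39 (SD 0.26, 20 guides) in TF1, the pool with guides of its own beside the shared ones. The shared guides alone had medians from -0.33 to 0.06 over the 9 pools outside CF3, with TF3 the highest.

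The muscle regulators listed were measured in 6 cases, of which 4 had a median below 0, as did 53.7% of all 984 measurements. The list holds 22 genes, and its measured members had a median of -0.05, with 0 at or above 0.3 and 2 at or below -0.3. Over all 984 measurements these shares were 1.52% and 0.813%. Those at or below -0.3 were MYOD1, above, and MYOG, which drives terminal muscle differentiation, at -0.56 (SD over guides 0.21), both in TF1. ID3, an inhibitor of the muscle bHLH factors, was the highest at 0.25 (SD 0.26) in TF2, with 10 of 10 guides above 0 and under the size limit. Centred on the negative controls of its pool it had 0.36, past the limit, and with no centring 0.17.

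The authors' deposited table of the TF3 sort gives ZFP36L1 a beta of 0.338 and a z of 2.41. In the authors' deposited table its beta is the second of 108 library targets, under NFYA at 0.406 and above ZNF217 at 0.230. The p-value in the authors' deposited table is 0.0087 with a false discovery rate of 0.2, which 3 library targets reach or better. The Wald p-value in the authors' deposited table is 0.016, with a Wald false discovery rate of 0.282, which 11 library targets reach or better, NFYA among them. At 0.05 in either rate of the authors' deposited table ZFP36L1 is not called, while NFYA is called in the column fdr, where it is listed at 0. The table uses the same 2 samples, so it adds no independent measurement.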

How the data were processed

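Per the labels' protocols, the guide cassette was amplified by PCR from genomic DNA of each sorted sample and sequenced. What the authors deposited are raw counts of reads for each guide. The submitters' processing notes name FastQC and MAGeCK, and the sources used here give neither versions nor settings. The authors also deposited a table of the TF3 pool with a model score (beta, z), p-values and false discovery rates per target, which per the file headers has the columns of a MAGeCK maximum likelihood fit. The log base of beta is not stated.

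Counts were scaled to CPM over all guides of a sample. Log2 ratios used a pseudocount of 1 CPM and were centred on the median guide of the pool. Guides under 10 counts over both samples were left out (0 in TF3, 8 in TF1), as were targets with fewer than 3 guides. The 7 shared control sets were kept out of the library targets, except MYOD1 in TF1. A target was called past the size limit at a median log2 ratio of at least 0.3 in size. With 1 sample per group no test was run between conditions. The members and gene lists were chosen with earlier results of these data known. Named genes were the 4 targets on each side of ZFP36L1 in TF3 (only 1 lies above), targets past the limit there, the control sets, the 5 most alike targets, all measured ZFP36 family and kinase or phosphatase members, and list members past the limit or otherwise the highest and lowest. Further list members were named beyond that rule where few were measured. The results of 2 targets are counted and otherwise not reported here. The procedure was tested on simulated data. The tools were scipy 1.17.1, pandas 2.3.3, numpy 2.4.6 and Python 3.11.15.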

Additional observations from a re-analysis of the deposited data

How the results depend on the processing

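The ZFP36L1 median stayed above 0.3 under all 9 other settings tried, of which 4 could hardly move it. It was 0.49 when centred on the negative-control guides, 0.39 with no centring, 0.49 as the mean over guides, 0.56 as the ratio of summed CPM and 0.46 with a pseudocount of 10 CPM. The other 4 settings moved it by less than its counting error. They were library size without the fusion guides, a pseudocount of 0.1 CPM, no count minimum and a minimum of 100. These 4 could hardly move it, so they are not a check. No TF3 guide had under 10 counts, and each ZFP36L1 guide had far more than 100. Centring on the median guide takes out a change of library size, and either pseudocount is small beside these guides' CPM. Leaving out each guide in turn gave 0.470 to 0.472. These are the ratios of the 2 middle guides, the only values that this step can give, so it is not a check. Under each of these 9 settings 1 library target of TF3, NFYA, lay above it. A size limit of 0.2 gave 5 enriched TF3 targets, and a limit of 0.5 gave 1 enriched, without ZFP36L1, and 0 depleted. The 1 depleted TF3 target became 0 when centred on the negative controls, with the mean over guides, with summed CPM and with a pseudocount of 10 CPM; the cause was not tested. The 2 enriched TF3 targets became 3 with the mean over guides and with summed CPM. Over all pools, centring on the negative controls gave 23 enriched and 112 depleted measurements, in place of 15 and 8. The negative controls of CF3 had a median of 1.30, so this centring lowers every CF3 value by that amount. The highest CF3 target had a median of 0.32 under the main centring, so every CF3 target is among the 112. How many they are was not counted. With the centring on the median guide kept, and pool CF3 left out, the counts were 13 and 6. That alternative was chosen after seeing the data. No paired analysis was possible because each group holds 1 sample. Counting error of reads was small for the single ZFP36L1 guides, but the number of sorted cells behind each guide was not examined. The lack of a second TF3 sort limits every value.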

Other observations

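Single control guides moved between sorts by very different amounts. The highest negative control of TF3, sgRNA3239, ran from -2.51 to 4.43 on the log2 scale over the other 9 pools, with a median of 0.41 there. The second highest, sgRNA3241, at 0.36 in TF3, had a median of -0.01 over the other 9 pools. Outside CF3, the SD of a single guide over 9 pools was 0.13 for the median negative-control guide, 0.18 for the median MYOD1 guide and 0.23 for the median PCNA guide. It was 1.98 for sgRNA3239, 0.47 for the PCNA guide sgRNA3230 and 0.39 for the MYOD1 guide sgRNA3203.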
